A study of Mus musculus with 6 samples.

Results

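The genes described here encode the proteins that find and mend damaged DNA. Of 41 listed repair genes, 39 were read by at least 1 probe set whose platform annotation gives that symbol and no other, out of 18193 genes named in this way on the array. Xrcc2 had no probe set under its own symbol, and the 3 probe sets of Tdg also carried the names of 2 pseudogenes, so neither gene was analysed here. Each gene was represented by its probe set with the highest mean over all arrays. Of these 39 genes 5 act in the sensing of double-strand breaks, 4 in homologous recombination, 5 in non-homologous end joining, 10 in the repair of damaged bases and single-strand breaks, 10 in nucleotide excision repair, 3 in mismatch repair and 2 in the Fanconi anaemia pathway.

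Bought mouse mesenchymal stem cells, which can form fat, bone and cartilage, were grown with 1 µM rosiglitazone, 5 µg/ml insulin, 100 µM isobutylmethylxanthine and 1 µM dexamethasone, and all cultures of both groups received these compounds again 48 h before exposure. The irradiated group consisted of 3 cultures, each exposed for 2 h to a continuous-wave terahertz laser at 2.52 THz, and the control group of 3 cultures that stood beside them at the same 26 to 27 °C. RNA was taken directly after the exposure, and each of the 6 cultures was read on 1 Affymetrix mouse array, so the design compares each irradiated culture with the control of its own experiment. Within an experiment the cultures had been brought to 1 time point of differentiation. The labels state no strain or age of the source animals.

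Cells repair DNA by routes that differ in the lesion they take. Breaks through both strands are held and signalled by a sensor complex and its kinases, then copied from the sister chromatid during or after replication or joined end to end at any time. Oxidised, deaminated or lost bases are cut out singly by base excision repair, bulky lesions such as those left by ultraviolet light are removed within a short strand by nucleotide excision repair, and replication errors are corrected by mismatch repair. Many genes of recombination and of the Fanconi anaemia pathway are transcribed mainly in dividing cells, whereas excision repair genes are active in most tissues. Terahertz photons carry far less energy than is needed to break a covalent bond.

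The arrays differed little in their overall level, with medians over all probe sets of 5.01 to 5.05 log2 units, and an array has no read depth, so the number of arrays limits the precision. The control of experiment 3 stood apart in 3' minus 5' actin signal, a sign of RNA quality, at 0.68 log2 units against 0.50 to 0.57 on the others. It also stood apart in 3' minus 5' Gapdh signal, at 0.11 against -0.10 to -0.08. Of 11 measured mesenchymal stromal markers 10 lay at or above the median gene level of 6.46, with Thy1 at a mean of 3.88 the exception. All 8 fat cell markers and 8 of 9 macrophage markers did so as well, among the latter Lyz2 at 14.17 and Csf1r at 12.78. None of 6 endothelial markers, 1 of 6 epithelial and 1 of 5 lymphocyte markers (Ptprc, which marks all white blood cells) reached it. In such mixed RNA fewer cells of a type and less RNA per cell cannot be told apart.

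Most repair genes gave a clear signal in both groups. Their mean values over the 6 arrays ran from 2.71 to 10.76 log2 units, and 28 of 39 (71.8%) lay at or above the median gene. All 5 sensing genes and all 3 mismatch repair genes did so, as did 8 of 10 nucleotide excision, 6 of 10 base excision, 4 of 5 end-joining and 2 of 4 recombination genes, and neither Fanconi gene. Ercc6, which couples excision repair to transcription, was the dimmest member at 2.71, and its values between 2.46 and 2.89 lie in the range where the array resolves little. A probe set's level reflects its probes too, and such levels give no ratio between genes.

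**Figure D1:**
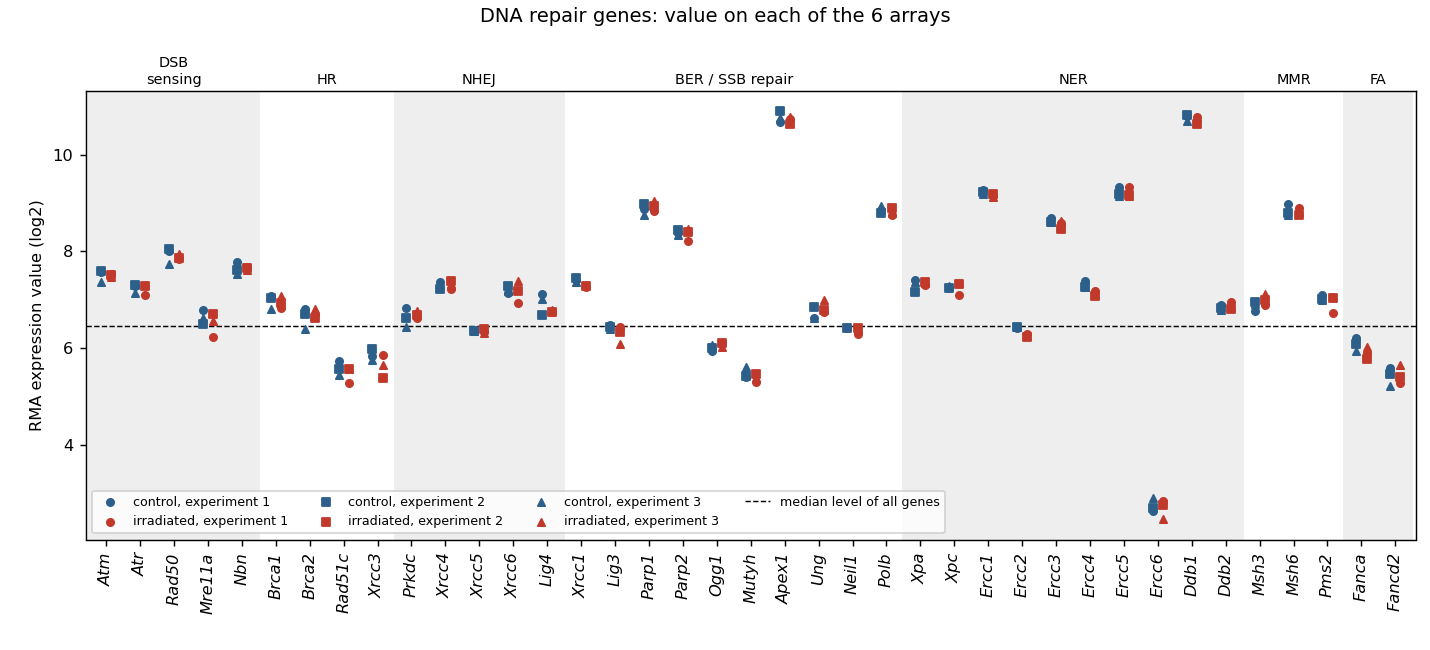
RMA expression value (log2) of each of the 39 repair genes on each array, grouped by pathway (DSB, double-strand break; HR, homologous recombination; NHEJ, non-homologous end joining; BER and SSB, base excision and single-strand break repair; NER, nucleotide excision repair; MMR, mismatch repair; FA, Fanconi anaemia). Blue points are controls, red points irradiated cultures, the symbol gives the experiment and the dashed line is the median gene at 6.46; the 6 points of a gene lie within 0.59 log2 units of each other, and 28 genes have a mean at or above the line.

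No repair gene was called different after irradiation. limma, blocked on experiment and with Benjamini-Hochberg adjustment over all 18193 genes, called 0 of 39 members and 0 genes in all (0%), and the smallest adjusted p among the members was 0.995. At an unadjusted p under 0.05 it gave 1 member, Ercc4, on the lower side, which is 2.56% of members where 1.89% of all genes were lower at that level, and 0 members on the higher side, where 1.42% of all genes were. Both directions together held 3.31% of all genes. The members' differences ran from -0.22 for Xrcc3 to 0.13 for Ung, with a median of -0.037 against -0.010 over all genes. Of 39 members 27 (69.2%) had a mean difference below 0, 11 above 0 and Atm stood exactly at 0, and 53.3% of all genes lay below 0.

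The intervals bound how large a change these data leave room for. By the probe set used, the 95% moderated interval of every one of the 39 members lay within 1.5-fold in either direction, as did those of 98.3% of all genes. Its half-width was 0.21 log2 units in the median, both over the members and over all genes. The widest reach was that of Xrcc3, whose interval of -0.53 to 0.080 allows a value at most 1.44-fold lower, and on the higher side that of Ung, whose interval reached 0.38 log2 units. These intervals are per gene, are not adjusted for the number of genes and apply to RMA values, which tend to understate changes of dim probe sets such as that of Ercc6. Other probe sets of a member can reach further. A dimmer Atr probe set, at a level of 4.67, differed by 0.25 with an interval of -0.13 to 0.64, which passes 1.5-fold.

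**Figure D2:**
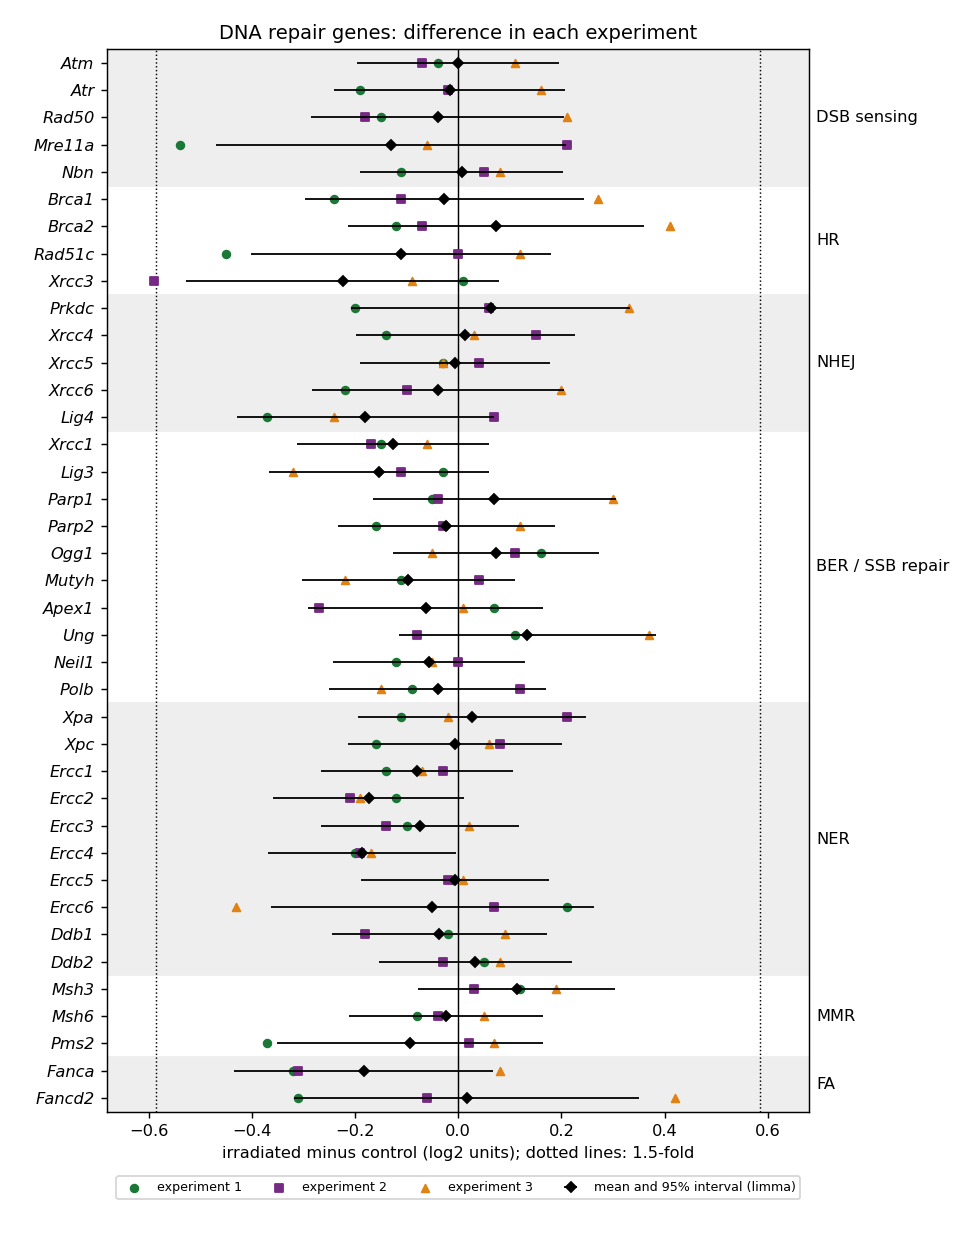
Irradiated minus control (log2 units) of each repair gene in experiments 1 (green circles), 2 (purple squares) and 3 (orange triangles), with the mean and its 95% interval from limma as a black diamond and bar. All bars lie inside the dotted lines at 1.5-fold, and the bar of Ercc4, from -0.37 to -0.0052, is the only one that does not cross 0.

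The genes of double-strand break sensing had differences between -0.13 and 0.0067 log2 units. The Mre11a, Rad50 and Nbn proteins form the complex that grips broken ends. Rad50 stood at 8.0, 8.05 and 7.74 in the controls of experiments 1 to 3 and at 7.85, 7.87 and 7.95 in the irradiated cultures. It was lower than its control in experiments 1 and 2 and higher in experiment 3, and its mean difference of -0.040 had a 95% interval of -0.28 to 0.20. Mre11a, the nuclease of the complex, stood at 6.78, 6.50 and 6.62 in the controls and at 6.24, 6.71 and 6.56 in the irradiated cultures. The groups overlapped, and its difference of -0.13 (interval -0.47 to 0.21) came from experiment 1, at -0.54, without which the mean was 0.075. A dimmer Mre11a probe set, at a level of 4.24, went the other way in that experiment, at 0.54. Nbn differed by 0.0067, and the kinases Atm and Atr, which start the damage signal, by 0 and -0.017, with intervals that reached no further than -0.24 and 0.21.

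Of the 4 recombination genes, Brca1, Brca2 and Rad51c were below their control in experiment 1 and above it in experiment 3, while Xrcc3 was not. Brca1, which steers broken ends towards recombination, stood at 7.07, 7.04 and 6.80 in the controls and at 6.83, 6.93 and 7.07 in the irradiated cultures. Both groups thus spanned nearly the same range, and the mean difference was -0.027 (interval -0.30 to 0.24). Brca2, which loads the recombinase onto DNA, stood at 6.80, 6.70 and 6.40 in the controls and at 6.68, 6.63 and 6.81 in the irradiated cultures, with a mean difference of 0.073 (interval -0.21 to 0.36). For both genes the control of experiment 3 was the lowest of the 6 arrays. Xrcc3, a relative of the recombinase that works with Rad51c, stood at 5.84, 5.98 and 5.75 in the controls and at 5.85, 5.39 and 5.66 in the irradiated cultures. Its difference of -0.22 was the largest among the members and came from experiment 2, at -0.59. A second Xrcc3 probe set of nearly the same level (5.66) stood at 0.09 in that experiment. Its mean difference was smaller, at -0.10 (interval -0.35 to 0.15). Rad51c differed by -0.11, with -0.45, 0 and 0.12 in the 3 experiments.

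Both Fanconi genes were below their control in experiment 1 and above it in experiment 3, and neither differed between the groups by the test. Fancd2, which is marked with ubiquitin at stalled replication forks, stood at 5.59, 5.47 and 5.22 in the controls and at 5.28, 5.41 and 5.64 in the irradiated cultures. It was thus lower than its control by 0.31 in experiment 1 and higher by 0.42 in experiment 3, and the mean difference was 0.017 (interval -0.32 to 0.35). Fanca, part of the complex that attaches the ubiquitin, stood at 6.21, 6.08 and 5.95 in the controls and at 5.89, 5.77 and 6.03 in the irradiated cultures, and differed by -0.18 (interval -0.43 to 0.067). The groups of both genes overlapped. Among 3 dimmer probe sets of Fancd2, all below the median gene level, 1 at a level of 3.88 had a difference of -0.31 with an unadjusted p of 0.0214 and an adjusted p of 0.995 in a limma fit over all 45037 probe sets. That fit called 0 probe sets (0%), and the Fancd2 probe set was the only one of the members' 84 under an unadjusted 0.05, where 3.77% of all probe sets were.

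**Figure D3:**
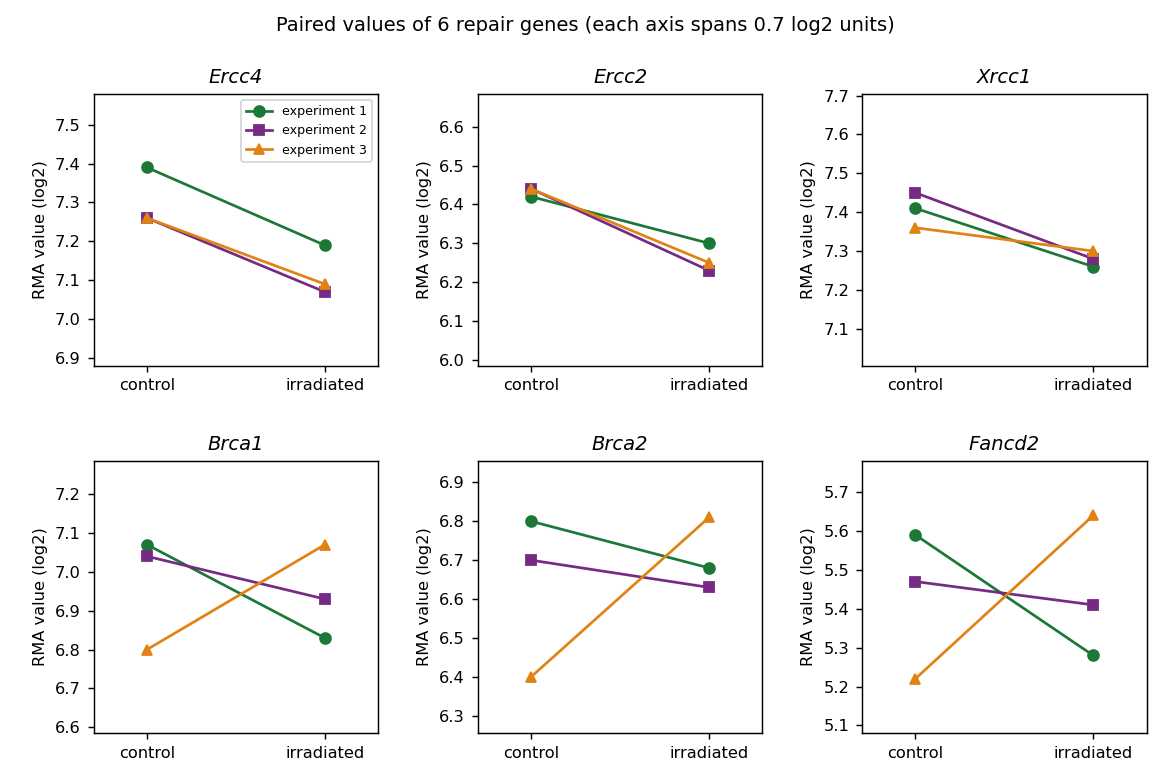
RMA value (log2) of 6 repair genes in the control and the irradiated culture of each experiment, joined by a line per experiment. In the top row (Ercc4, Ercc2, Xrcc1) all 3 lines fall and the groups do not overlap; in the bottom row (Brca1, Brca2, Fancd2) the lines of experiments 1 and 2 fall and that of experiment 3 climbs from the lowest control.

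Promoters of the members were rich in C and G. RefSeq windows on GRCm38.p6, from 250 bases before to 50 bases after a transcription start, were at hand for 31 of 39 members, 34 windows in all. Their median GC content was 60.0% against 52.7% over all 32851 windows, and they held a median of 23.5 CpG dinucleotides against 7. The letters TTTCCCGC, a form of the site bound by E2F factors that drive genes of the replication phase, stood on either strand in 4 of 34 member windows (11.8%, against 1.07% of all windows), and the second form TTTGGCGC in 1 (2.94%, against 0.514%). Both forms contain a CpG, and the windows were not matched for CpG content, which was higher in the member windows. The 5 stretches with these letters are shown because some of their genes are among those that differed in opposite directions in experiments 1 and 3. Each is written 5' to 3' on the strand of its gene, with the E2F letters or their reverse complement in capitals.
Brca2, chr5:150522442-150522471, plus strand: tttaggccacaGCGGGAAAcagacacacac
Rad51c, chr11:87404941-87404970, minus strand: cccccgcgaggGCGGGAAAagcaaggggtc
Xrcc6, chr15:82016312-82016341, plus strand: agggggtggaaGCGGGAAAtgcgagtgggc
Msh6, chr17:87975054-87975083, plus strand: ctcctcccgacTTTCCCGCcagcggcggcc
Msh3, chr13:92355187-92355216, minus strand: ttgccgtcaagTTTGGCGCgaaatcgcagc
In Brca2, Rad51c, Xrcc6 and Msh6 the irradiated culture was below its control in experiment 1, by 0.12, 0.45, 0.22 and 0.08, and above it in experiment 3, by 0.41, 0.12, 0.20 and 0.05 log2 units, whereas Msh3 was above its control in both. Below their control in experiment 1 and above it in experiment 3 were 20 of 39 members (51.3%), against 29% of all genes. Brca1, Fanca, Parp1, Atm, Pms2 and Ercc5 were also among these members and held neither form in this window, and Fancd2 and Prkdc had no window here. The remaining members with this pattern likewise held neither form or had no window. A link between the letters and this pattern was not tested.

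End-joining genes showed no difference beyond the spread between experiments. The proteins of Xrcc5 and Xrcc6 form the Ku ring that slides onto broken ends, Prkdc encodes the kinase it recruits, and Xrcc4 with Lig4 seals the break. Xrcc5 was the steadiest member over the 6 arrays, between 6.32 and 6.39, with a difference of -0.0067. Xrcc4 stood at 7.37, 7.23 and 7.29 in the controls and at 7.23, 7.38 and 7.32 in the irradiated cultures, a difference of 0.013 (interval -0.20 to 0.23). Lig4 stood at 7.12, 6.68 and 7.02 in the controls and at 6.75, 6.75 and 6.78 in the irradiated cultures. The irradiated values of Lig4 lay between the controls, and its difference of -0.18 (interval -0.43 to 0.069) was smaller than the 0.44 log2 units that the 3 controls spanned. Prkdc and Xrcc6 differed by 0.063 and -0.040, and both were below their control in experiment 1 and above it in experiment 3.

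Among genes of base excision and single-strand break repair, Xrcc1 and Lig3 were lower in all 3 pairs. Xrcc1, the scaffold that gathers enzymes at a nick, stood at 7.41, 7.45 and 7.36 in the controls and at 7.26, 7.28 and 7.30 in the irradiated cultures. All its irradiated values lay below all controls, but the difference of -0.13 had an interval of -0.31 to 0.060. Lig3, the ligase that Xrcc1 carries, stood at 6.47, 6.44 and 6.40 in the controls and at 6.44, 6.33 and 6.08 in the irradiated cultures, with a difference of -0.15 (interval -0.37 to 0.060) of which most came from experiment 3. The other 4 probe sets of Lig3 differed by -0.16 to -0.017, none with 1 sign in all 3 experiments. Apex1, which cuts the strand where a base is missing, had the highest value of this group and stood at 10.68, 10.90 and 10.77 in the controls and at 10.75, 10.63 and 10.78 in the irradiated cultures. It differed by -0.063 (interval -0.29 to 0.16), and the other Apex1 probe sets stood at 0 and 0.023.

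The glycosylases, which remove single damaged bases, did not go one way. Ung, which removes uracil, differed by 0.13 with 0.11, -0.08 and 0.37 in the 3 experiments, and Ogg1, which removes oxidised guanine, by 0.073 with 0.16, 0.11 and -0.05. Mutyh, which removes adenine paired with oxidised guanine, differed by -0.10 and Neil1, which removes oxidised pyrimidines, by -0.057. The nick sensors Parp1 and Parp2 differed by 0.070 and -0.023, and Polb, the polymerase that fills the gap, by -0.040. Intervals of these 7 genes all included 0 and reached no further than -0.30 and 0.38.

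In nucleotide excision repair, Ercc4 and Ercc2 had irradiated values below all controls. Ercc4, whose protein cuts the damaged strand together with that of Ercc1, stood at 7.39, 7.26 and 7.26 in the controls and at 7.19, 7.07 and 7.09 in the irradiated cultures. Its differences of -0.20, -0.19 and -0.17 had an SD of 0.015 log2 units, and their mean of -0.19 corresponds to 1.14-fold lower (unadjusted p 0.0454 and Benjamini-Hochberg adjusted p 0.995 in limma, lower in 3 of 3 pairs). Ercc2, a helicase of the transcription factor TFIIH that opens the DNA around a lesion, stood at 6.42, 6.44 and 6.44 in the controls and at 6.30, 6.23 and 6.25 in the irradiated cultures. Its difference was -0.17, 1.13-fold lower, with an interval of -0.36 to 0.011 (unadjusted p 0.0617 and Benjamini-Hochberg adjusted p 0.995 in limma). Such separation was found in 3 of 39 members (7.69%), Ercc2, Ercc4 and Xrcc1, against 5.36% of all genes, and in 0 members on the higher side against 2.9%. Lower in all 3 pairs were 5 members (12.8%), the same 3 with Ercc1 and Lig3, as were 12.8% of all genes.

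Other probe sets did not repeat the Ercc4 and Ercc2 differences. The 3 dimmer probe sets of Ercc4 stood at 0.053, -0.090 and -0.087, none below 0 in all 3 experiments, and the other probe set of Ercc2 at 0.070. In the fit over all probe sets the unadjusted p of the Ercc4 probe set used here was 0.0629 in limma. With the mean of all probe sets per gene, Ercc4 differed by -0.077 (unadjusted p 0.304 in limma) and Ercc2 by -0.052. With 1 experiment left out at a time Ercc4 stayed between -0.20 and -0.18, at unadjusted p of 0.0888 to 0.101 in limma on 2 pairs. Its adjusted p ranged from 0.926 to 1 over 12 alternatives.

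The letters CCAAT, the core of the box bound by the factor NF-Y, stood on either strand in 18 of 34 member windows (52.9%, against 37.4% of all windows). The stretches of Ercc2 and Ercc4, the nucleotide excision genes whose groups did not overlap, are shown in the same way, with CCAAT or its reverse complement in capitals.
Ercc2, chr7:19381953-19381982, plus strand: gggaggactcggCCAATggcgtcccgagga
Ercc4, chr16:13109533-13109562, plus strand: tgaactgtcggtATTGGaggattacgcgga
Ercc2 held 3 such matches, of which the one nearest to its start is shown, and Ercc4 held 1. Neither gene's window held the E2F letters. The nucleotide excision genes Xpa and Ercc5, with differences of 0.027 and -0.0067, also held CCAAT, as did Brca1, Fanca and Apex1, whose groups overlapped. Such a match describes the sequence and does not show that a factor was bound. A link between CCAAT and the differences was not tested.

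By the probe sets used, the rest of the excision machinery lay near 0. Ddb1, which with Ddb2 recognises ultraviolet lesions, had the highest value of the pathway and stood at 10.80, 10.82 and 10.70 in the controls and at 10.78, 10.64 and 10.79 in the irradiated cultures. It differed by -0.037 (interval -0.24 to 0.17) and Ddb2 by 0.033. The other Ddb2 probe set, at a level of 6.48, stood at 0.12 (interval -0.079 to 0.33) and was higher in all 3 pairs. Xpc, the first sensor of distorted DNA, differed by -0.0067, Xpa, which checks the lesion, by 0.027, the other TFIIH helicase gene Ercc3 by -0.073 and the nuclease gene Ercc5 by -0.0067, with an SD over experiments of 0.015 log2 units like that of Ercc4. Ercc1 differed by -0.080, with -0.14, -0.03 and -0.07 in the 3 experiments, while its next brightest probe set stood at 0.020. Another Ercc1 probe set, at a level of 6.57, was higher in all 3 pairs, by 0.32, 0.06 and 0.06 (mean 0.15, interval -0.079 to 0.37). The dimmest, at 3.68, stood at -0.053. Ercc6, the dimmest member, differed by -0.050 (interval -0.36 to 0.26), but by 0.21, 0.07 and -0.43 in the 3 experiments.

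Mismatch repair held the single member that was higher in all 3 pairs. Msh3, which recognises loops of several unpaired bases, stood at 6.77, 6.96 and 6.92 in the controls and at 6.89, 6.99 and 7.11 in the irradiated cultures. The groups overlapped, and the difference of 0.11 had an interval of -0.078 to 0.30. This 1 member of 39 (2.56%) compares with 8.23% of all genes that were higher in all 3 pairs. Msh6, which recognises single mismatches, stood at 8.98, 8.80 and 8.76 in the controls and at 8.90, 8.76 and 8.81 in the irradiated cultures, a difference of -0.023 (interval -0.21 to 0.16). Pms2, which cuts the strand to be corrected, differed by -0.093, from -0.37 in experiment 1, 0.02 in experiment 2 and 0.07 in experiment 3.

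**Figure D4:**
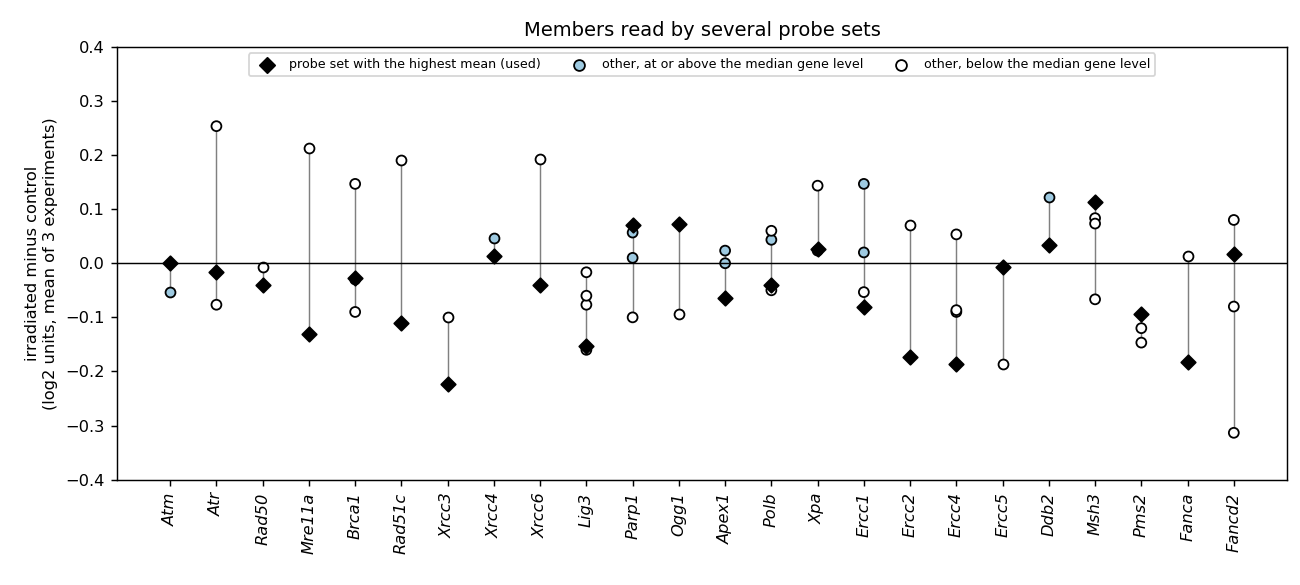
Irradiated minus control (log2 units, mean of 3 experiments) for all probe sets of the 24 repair genes that have more than 1. Black diamonds are the probe sets used, blue circles others at or above the median gene level and white circles others below it; in 15 of the 24 genes probe sets lie on both sides of 0.

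Repeated readings of a gene often disagreed in sign. Of 39 members 15 had 1 probe set and 24 had several, 84 probe sets in all. In 9 of the 24 no 2 probe sets lay on opposite sides of 0, among them Pms2, Lig3, Xrcc3 and Ddb2, and in 15 they lay on both sides. For 33 of 39 members the 3 controls spanned more than the mean difference between the groups (84.6%, against 87.2% of all genes).

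Among the members, the size of the difference followed the experiment in some pathways more than in others. Both excision pathways hold 10 measured genes and the Fanconi pathway 2, and a mean over fewer genes tends to vary more. Recombination genes averaged -0.20, -0.19 and 0.18 log2 units in experiments 1 to 3, a mean of -0.072 ± 0.22 (SD, n = 3 experiments). The Fanconi genes averaged -0.32, -0.18 and 0.25 (mean -0.083 ± 0.30), the sensing genes -0.21, -0.0020 and 0.10 (mean -0.036 ± 0.16), the end-joining genes -0.19, 0.044 and 0.058 (mean -0.030 ± 0.14) and the mismatch genes -0.11, 0.0033 and 0.10 (mean -0.0011 ± 0.11). Both excision pathways varied least, at -0.060, -0.044 and -0.062 for nucleotide excision (mean -0.055 ± 0.0099) and -0.037, -0.043 and -0.0050 for base excision repair (mean -0.028 ± 0.020). Over all members the mean was -0.042 ± 0.082, and over all genes -0.0074 ± 0.0092. No test was made of these means, because the members were listed with results of these data known.

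In experiment 1, 32 of 39 members (82.1%) were below their control, as were 56.4% of all genes. In experiment 2, 23 (59%) were below it, against 50.1%, and in experiment 3, 24 (61.5%) were above it, as were 48.9% of all genes. Lower in experiment 1 and higher in experiment 3 were 20 members (51.3%, against 29% of all genes), among them Brca1, Brca2, Rad51c, Fanca, Fancd2, Prkdc and Parp1, and the opposite held for 3 members, against 21.4% of all genes. Markers of dividing cells such as Mki67 and Top2a went the same way: 20 measured genes averaged -0.19, 0.048 and 0.32 in the 3 experiments, with 18 lower in experiment 1 and 18 higher in experiment 3. Their mean level lay between 8.38 and 8.57 in the controls, lowest in experiment 3, and between 8.39 and 8.70 in the irradiated cultures, lowest in experiment 1. The irradiated culture of experiment 1 and the control of experiment 3 were each the lowest of the 6 arrays for 11 members (28.2%), against 18.3% and 15.8% of all genes. That control is also the array with the highest actin and Gapdh 3' to 5' differences. Macrophage markers followed this order too, averaging -0.16, 0.0067 and 0.13, with 9 of 9 lower in experiment 1 and 6 higher in experiment 3. Their list levels were 10.20 to 10.51 in the controls and 10.04 to 10.64 in the irradiated cultures. Fat cell markers did not, averaging 0.062, -0.52 and 0.0088. Their levels were 11.30 to 11.69 in the controls and 11.17 to 11.52 in the irradiated cultures. The part of dividing cells, of other cell types or of RNA quality in the repair gene values was not tested.

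Leaving out 1 experiment decided the sign of several pathway means. Without experiment 1 the Fanconi mean was 0.033, the sensing mean 0.049, the end-joining mean 0.051 and the mismatch mean 0.053, and without experiment 3 they were -0.25, -0.10, -0.074 and -0.053. The recombination mean was -0.0075 without experiment 1, -0.011 without experiment 2 and -0.20 without experiment 3. The nucleotide excision mean stayed between -0.061 and -0.052.

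**Figure D5:**
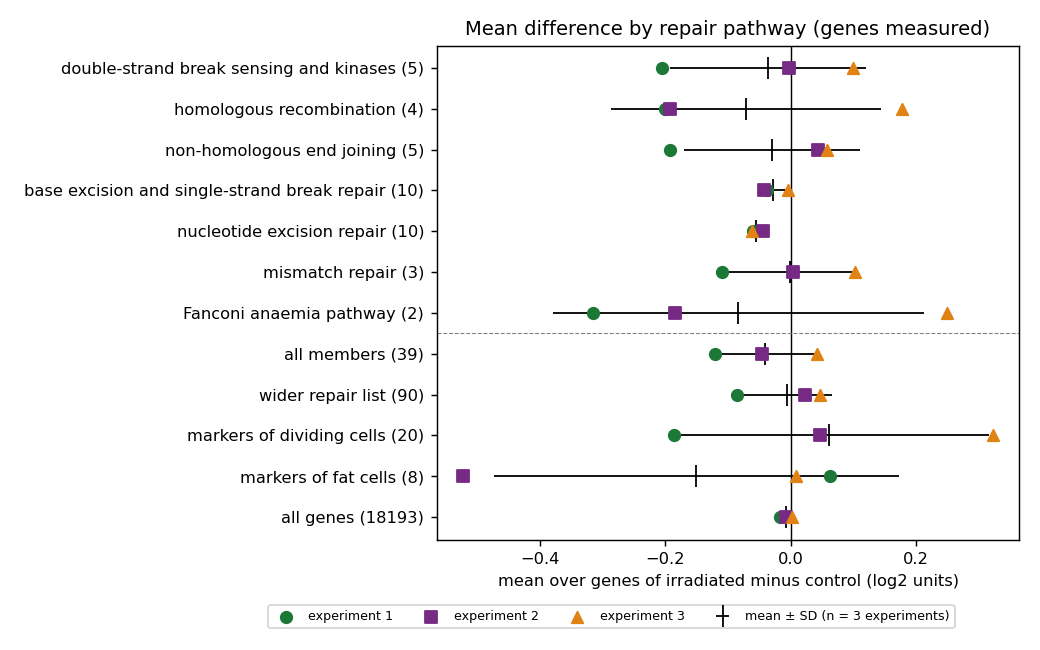
Mean over genes of irradiated minus control (log2 units) in each experiment for the 7 repair pathways, all members, the wider repair list, markers of dividing cells and of fat cells and all genes, with the number of genes measured. Black bars are mean ± SD over 3 experiments; experiment 1 lies below experiment 3 in 6 of the 7 repair pathways and in the dividing cell markers, whereas the 3 points of nucleotide excision repair lie between -0.062 and -0.044.

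No repair gene was called different between the 3 experiments. With 1 array per group and experiment, the error of this test is the variation of irradiated minus control over the experiments. It thus cannot show whether irradiated minus control changed with the experiment, and pairs that differ in opposite directions make a call less likely. A limma F test of the experiment, with the group in the model, called 0 of 39 members and 0 of 18193 genes after Benjamini-Hochberg adjustment (0%), and 0 members had an unadjusted p under 0.05 where 5.46% of all genes did. With the alternatives run for this test, 1 or 2 genes were called and the number of members under an unadjusted 0.05 was 0 in each.

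Among 99 further repair genes, 90 were measured and none passed in either direction. limma with Benjamini-Hochberg called 0 of 90, and at an unadjusted p under 0.05 gave 2 higher (2.22%) and 1 lower (1.11%), near the 1.42% and 1.89% of all genes. Aplf, an end-joining factor that binds poly(ADP-ribose), stood at 5.75, 5.36 and 5.33 in the controls and at 5.80, 5.91 and 5.73 in the irradiated cultures (difference 0.33, interval 0.068 to 0.60). Of the Fanconi core complex, Fancg stood at 5.17, 5.36 and 5.30 against 5.39, 5.67 and 5.50 (0.24, interval 0.057 to 0.43) and Fance at 6.65, 6.38 and 6.51 against 6.24, 6.26 and 6.30 (-0.25, interval -0.46 to -0.034). Fancg and Fance thus differed in opposite directions, each with groups that did not overlap, while for Aplf the control of experiment 1 lay above 1 irradiated value. Groups that did not overlap were found in 3 of 90 genes on the higher side (3.33%, against 2.9% of all genes) and in 5 on the lower side (5.56%, against 5.36%). Below 0 were 50 of 90 (55.6%), against 53.3% of all genes. By pathway, below 0 were 9 of 12 nucleotide excision, 10 of 17 recombination, 7 of 13 Fanconi, 6 of 12 sensing, 6 of 10 direct reversal and translesion, 5 of 12 base excision, 4 of 9 mismatch and replication clamp, and 3 of 5 end-joining genes. The 12 further nucleotide excision genes averaged -0.019, -0.082 and -0.053 in the 3 experiments (mean -0.051 ± 0.031, SD, n = 3), and the whole list had a median of -0.015. The 12 further base excision genes averaged -0.099, 0.035 and 0.14 (mean 0.025 ± 0.12). The 13 further Fanconi genes averaged -0.095, 0.042 and -0.0046 (mean -0.019 ± 0.070). The 17 further recombination genes averaged -0.11, 0.036 and 0.039 (mean -0.012 ± 0.085). The small spread of base excision among the members was thus not repeated here. The Fanconi and recombination spreads were smaller here than among the members. These lists hold 13 and 17 genes against 2 and 4 members, and a mean over more genes tends to vary less. Whether the large spreads of the members repeat can thus not be told.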

How the data were processed

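Each array has 1 deposited column of log2 values, 1 for each probe set. The authors used RMA, affy and limma, per the submitters' processing notes, in versions not given in the sources used here. The log base is not stated and was taken as 2 from the range of values. RMA brings all arrays to 1 distribution, which hides a shift that all transcripts share. Of 45101 probe sets 64 are array controls, and 34945 of the rest have exactly 1 symbol in the platform annotation. All 39 member symbols are in the RefSeq gene table.

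limma 3.58.1 in R 4.3.3 (lmFit, eBayes) was fitted to all 18193 genes, irradiated minus control with the experiment as a block, with Benjamini-Hochberg adjusted p under 0.05, 2 residual and 4.66 prior degrees of freedom. The design text states which control belongs to which irradiated culture. After subtraction of group means, both arrays of an experiment correlated at 0.087, -0.065 and -0.029 over probe sets and at -0.092, -0.42 and -0.45 over the 39 members. The script was tested on simulated data.

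The members and lists were chosen with earlier results of these data known. The 3 experiments are independent per the design text. Described with their array values are members with an unadjusted p under 0.05 or groups that do not overlap, and in each pathway the member with the highest value and that with the largest difference. Brca2 and Fancd2 were added after their values were seen. Of the wider list, genes with an unadjusted p under 0.05 are described.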

Additional observations from a re-analysis of the deposited data

How the results depend on the processing

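The count of called members was 0 under all 12 alternatives to the limma fit. The count of called genes, 0 in that fit, was 8 with an ordinary paired test and 0 otherwise. Members at an unadjusted p under 0.05, 1 in limma with the replicate block, were 2 without the replicate block, with a random replicate block, without the replicate block and the control of experiment 3, and with the ordinary paired test, and 0 with the mean of all probe sets or with unique probe sets preferred. They ranged from 0 to 1 when 1 experiment was left out. All genes at that level, 603, were 240 at or above the median level, where fewer genes are tested. The nucleotide excision mean of -0.055 was -0.041 at or above the median level, -0.024 with the mean of all probe sets, -0.045 with unique probe sets preferred and -0.065 with arrays centred on their medians. It moved by more than its SD of 0.0099 in each. Genes called for a difference between experiments, 0 in limma, were 2 with a trended robust fit and 1 with each of a level filter, the mean of all probe sets, centred arrays and no group term. Leaving out the replicate block changed no adjusted call.

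Of 176 values of 15 named members under the alternatives, 12 changed sign, none of a called gene, and the cause was not tested. Mre11a, at -0.13, was 0.042 with the mean of all probe sets and 0.21 with unique probe sets preferred, and Apex1, at -0.063, was 0.023 with the latter. When 1 experiment was left out, Rad50 ranged from -0.17 to 0.030, Mre11a from -0.30 to 0.075, Brca1 from -0.17 to 0.080, Xrcc4 from -0.055 to 0.090, Apex1 from -0.13 to 0.040, Ddb1 from -0.10 to 0.035 and Msh6 from -0.060 to 0.0050. Neither Fanconi gene reached the median level, so that filter gave no value for this pathway. With this number of arrays the members' intervals had half-widths of 0.18 (Ercc4) to 0.34 (Mre11a) log2 units, and a smaller change of a gene than its own half-width could not be told from 0.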
